A study of Mus musculus with 14 samples.

Results

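Lipid-associated macrophages are macrophages that take up and break down lipid in fat tissue, where they gather around dying or overloaded adipocytes. They are known for a programme that depends on TREM2, a lipid-sensing receptor, and that joins surface receptors, secreted proteins and lysosomal enzymes. The account here covers 10 genes of that programme among the 35275 genes of the deposited table: Gpnmb, Trem2, Spp1, Mmp12, Itgax, Cd9, Lgals3, Atp6v0d2, Cd68 and Ctsk. The list was drawn up because Gpnmb and Mmp12 are among the genes that rise most in knockout animals at 30 °C. Values of that comparison therefore describe how the genes were chosen and are given without a test, while the comparison at 22 °C sets other animals against each other and was tested, in a fit that pools the spread of all 4 groups.

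RNA came from brown adipose tissue of C57BL/6 mice aged 8 weeks. Knockouts had the genotype LrpprcFF Ucp1-Cre, so that Lrpprc, whose product binds and stabilises mitochondrial transcripts, was removed under the Ucp1 promoter, which is active in brown adipocytes. Controls, which the series calls wild type, carried the same floxed Lrpprc alleles without Cre. At room temperature (22 °C) there were 4 knockouts and 4 controls, and at thermoneutrality (30 °C), where brown fat is not needed for warmth, 3 and 3. Each library came from 1 animal, and animals are numbered within a group in accession order. Macrophages are not the cells in which Cre is driven, and although the cell type is labelled brown adipocytes, the tissue was homogenized whole. In such bulk RNA, more macrophages and more RNA of a gene per macrophage cannot be told apart.

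Values are FPKM, fragments normalised to transcript length and library depth, multiplied by a factor for each library that brings the typical nuclear gene to one level. They are called scaled FPKM, and a gene's values divided by length in this way may be compared with those of another gene. Libraries held 15.7 to 21.0 M fragments, as recovered from the steps between low values. Lrpprc itself was at 9.05 to 11.3 scaled FPKM in knockouts and 24.6 to 60.6 in controls at 22 °C (limma log2 fold change -1.85, SE 0.23, adjusted p = 0.000643), and at 4.75 to 8.09 against 29.5 to 31.9 at 30 °C. All animals at 30 °C expressed Xist, the transcript of the inactive X chromosome (9.55 to 14.7 scaled FPKM, at most 0.0137 at 22 °C), and all animals at 22 °C expressed the Y-linked Ddx3y (16.4 to 25.0, at most 0.0236 at 30 °C). Housing temperature and sex-linked expression therefore cannot be told apart in any comparison across temperatures.

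Promoter sequences are shown as description, and a link between their motifs and the expression values was not tested. RefSeq windows on GRCm38.p6 were matched for 9 of the 10 genes by symbol, with 11 start sites in all, and 250 bases before each start were searched on both strands for 4 short motifs picked after the expression values were known. The AP-1 motif TGANTCA was found for 4 genes: Itgax, Mmp12, Cd68 and Trem2. It was present in 6.749% of 32851 promoter windows of the same length. In the lines here, each read 5′ to 3′ on the strand of the gene, capitals mark that motif.
Itgax, chr7:128129470-128129549, plus strand: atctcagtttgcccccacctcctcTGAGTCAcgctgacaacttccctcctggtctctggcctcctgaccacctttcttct
Mmp12, chr9:7347294-7347373, plus strand: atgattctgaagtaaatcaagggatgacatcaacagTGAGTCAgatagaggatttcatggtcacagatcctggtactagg
Cd68, chr11:69666171-69666330, minus strand: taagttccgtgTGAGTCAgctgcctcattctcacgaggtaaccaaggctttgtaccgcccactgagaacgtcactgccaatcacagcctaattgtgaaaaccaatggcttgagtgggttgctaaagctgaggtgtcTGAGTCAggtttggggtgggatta
Trem2, chr17:48346321-48346400, plus strand: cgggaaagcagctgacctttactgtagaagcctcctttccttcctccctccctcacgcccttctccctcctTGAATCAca
The motif began 56 bases before the start of Itgax, 44 before that of Mmp12, 149 and 24 before that of Cd68 and 9 before that of Trem2.

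A motif of PU.1, the ETS-family factor of myeloid cells, was searched as GAGGAAGT and was found for Spp1 and for the other RefSeq start of Mmp12, where it lies on the opposite strand. It was present in 2.441% of all windows. Capitals mark it in these lines.
Spp1, chr5:104434981-104435110, plus strand: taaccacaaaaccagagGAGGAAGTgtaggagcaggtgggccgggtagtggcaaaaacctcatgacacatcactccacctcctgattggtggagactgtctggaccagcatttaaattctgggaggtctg
Mmp12, other start, chr9:7344267-7344396, plus strand: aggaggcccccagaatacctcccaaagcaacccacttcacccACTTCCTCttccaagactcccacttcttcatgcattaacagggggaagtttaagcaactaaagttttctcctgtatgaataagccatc
The E-box CATGTG, known to be bound by factors of the MiT/TFE family that drive lysosomal genes, was found for Cd9 and Mmp12 (12.252% of all windows), and the related CACGTG for none of the 9 (6.021%). Gpnmb, a known target of those factors, had none of the 4 motifs in its window, whose last stretch is shown in lower case throughout.
Gpnmb, chr6:49036438-49036517, plus strand: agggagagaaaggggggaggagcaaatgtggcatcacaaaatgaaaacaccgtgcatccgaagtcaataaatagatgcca
A match of letters does not show that a factor binds there, and the motifs do not overlap one another in the lines shown. The table held no entry for Atp6v0d2.

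At 30 °C all 10 genes were higher in knockouts than in controls, by 2.08-fold for Cd9 to 13.9-fold for Gpnmb. In each of the 10 genes the lowest of the 3 knockouts lay above all 11 other animals of the study, so that the groups did not overlap for 10 of 10, where 19.0% of the 13079 genes tested were higher in knockouts without overlap. The list was drawn up on these animals, and nothing is read from that count. The median log2 fold change of the 10 genes was 2.71, beside 0.02 over all genes tested. Fold changes are on the log2(scaled FPKM + 1) scale, which understates changes of low values.

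**Figure D1:**
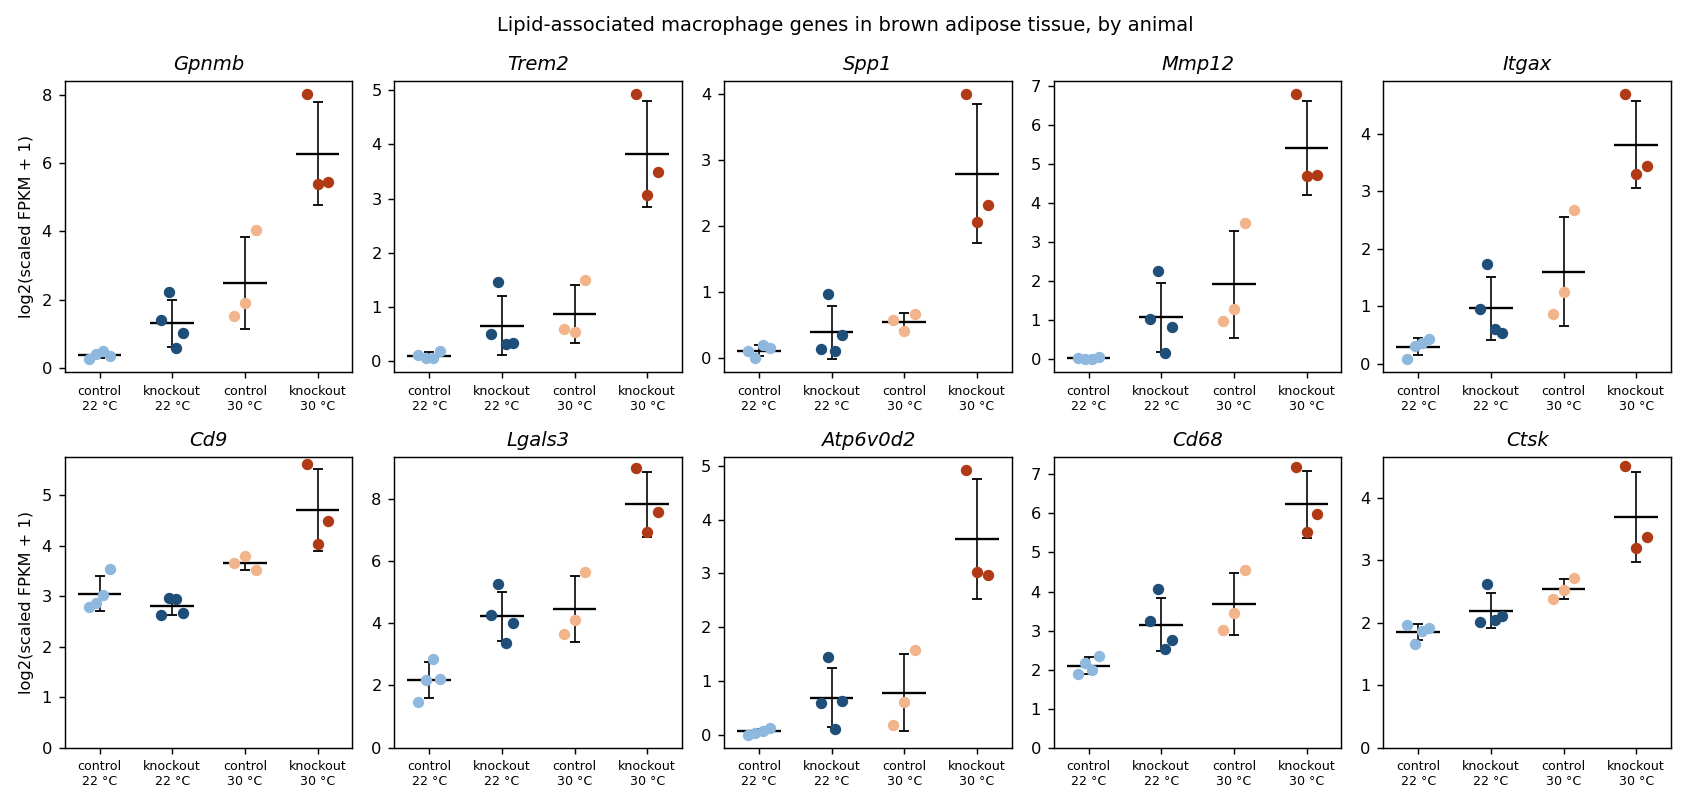
Level of each of the 10 genes in every animal, as log2(scaled FPKM + 1), with 1 panel per gene and its own axis range; points are animals, horizontal lines are group means and bars are the SD (4 animals per group at 22 °C, 3 at 30 °C). The knockouts at 30 °C lie above every other animal in all 10 panels, and the third control is the highest control at 30 °C in 9.

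Among the surface receptors, Trem2 encodes the lipid-sensing receptor that gives the programme its main input. In the controls at 22 °C it was at 0.079, 0.040, 0.046 and 0.137 scaled FPKM, and in the knockouts there at 0.418, 1.75, 0.255 and 0.264. At 30 °C the controls had 0.509, 0.449 and 1.81 and the knockouts 29.3, 7.33 and 10.2. Knockout 2 was the high animal at 22 °C, control 3 and knockout 1 were the high ones at 30 °C, and knockouts and controls did not overlap at either temperature. For Trem2 the fitted log2 difference was 0.55 at 22 °C (SE 0.36, adjusted p = 0.501 by limma) and 2.95 at 30 °C (SE 0.42).

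Gpnmb encodes a type I membrane glycoprotein of late endosomes and lysosomes that marks lipid-laden macrophages. Its scaled FPKM was 0.198, 0.323, 0.395 and 0.267 in controls and 1.65, 3.64, 0.481 and 1.01 in knockouts at 22 °C. At 30 °C it was 1.87, 2.72 and 15.4 in controls and 259, 40.6 and 42.7 in knockouts. No group overlapped its counterpart, but control 3 at 30 °C stood well above the other controls and knockout 1 was 6.39 times knockout 2. Gpnmb had a log2 fold change of 0.93 at 22 °C (SE 0.61, limma adjusted p = 0.498) and 3.80 at 30 °C (SE 0.70).

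Itgax encodes CD11c, an integrin alpha chain that pairs with the beta2 chain Itgb2 and is used to sort macrophages of inflamed fat. Controls at 22 °C had 0.062, 0.239, 0.288 and 0.354 scaled FPKM and knockouts 0.937, 2.35, 0.527 and 0.455. Controls at 30 °C had 0.830, 1.39 and 5.40 and knockouts 24.8, 8.91 and 9.87. The groups did not overlap at either temperature, with the closest approach at 22 °C, where knockout 4 was next to control 4. The log2 fold change of Itgax was 0.66 at 22 °C (SE 0.39, limma adjusted p = 0.451) and 2.21 at 30 °C (SE 0.45).

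Cd9 encodes a tetraspanin, a membrane organiser that is carried by these macrophages but also by many other cells, adipocyte precursors among them. It was at 5.87, 6.26, 7.14 and 10.7 scaled FPKM in controls and 5.21, 6.85, 6.70 and 5.39 in knockouts at 22 °C. At 30 °C the controls had 11.6, 12.9 and 10.5 and the knockouts 48.1, 15.4 and 21.6. Knockouts and controls overlapped at 22 °C, with a log2 fold change of -0.25 (SE 0.27, adjusted p = 0.708 by limma), while the deposited FPKM without scaling gave 0.0066. At 30 °C the difference in Cd9 was 1.06 (SE 0.31), and control 3, high for the other genes, was the lowest control.

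Of the secreted proteins, Mmp12 is macrophage elastase, a protease that cuts elastin and other matrix proteins. At 22 °C it was listed at 0.014, 0, 0 and 0.027 scaled FPKM in controls, which corresponds to an estimated 1.59, 0, 0 and 3.25 fragments. The knockouts there had 1.02, 3.79, 0.109 and 0.763. At 30 °C the controls had 0.969, 1.40 and 10.3 and the knockouts 110, 25.1 and 25.5. No control reached a knockout of the same temperature, and control 3 at 30 °C was again far above the other 2 controls. The log2 fold change of Mmp12 was 1.05 at 22 °C (SE 0.58, limma adjusted p = 0.424) and 3.50 at 30 °C (SE 0.67), and at 22 °C it rested on control levels too low to be measured well.

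Spp1 is osteopontin, a secreted phosphoprotein that binds integrins and CD44. Its scaled FPKM was 0.083, 0, 0.147 and 0.119 in controls and 0.102, 0.966, 0.081 and 0.279 in knockouts at 22 °C. It was 0.503, 0.329 and 0.595 in controls and 14.9, 3.17 and 4.01 in knockouts at 30 °C. At 22 °C the groups overlapped and only knockout 2 stood out, with a log2 fold change of 0.28 (SE 0.33, limma adjusted p = 0.734). At 30 °C the controls lay close together, control 3 included, and the difference in Spp1 was 2.24 (SE 0.38).

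Lgals3 encodes galectin-3, a lectin for beta-galactosides that is secreted and also gathers at damaged lysosomes. It was the most abundant of the 10 genes in the knockouts at both temperatures by scaled FPKM. Controls at 22 °C had 1.77, 3.50, 6.18 and 3.66 and knockouts 18.3, 37.0, 9.23 and 14.96. Controls at 30 °C had 11.5, 16.1 and 49.5 and knockouts 502, 121 and 192. Every knockout was above every control of its temperature, and knockout 3 at 22 °C was the nearest to the controls. The log2 fold change of Lgals3 was 2.04 at 22 °C (SE 0.52, limma adjusted p = 0.0705) and 3.37 at 30 °C (SE 0.60).

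Of the lysosomal genes, Cd68 encodes macrosialin, a heavily glycosylated membrane protein of macrophage lysosomes. Controls at 22 °C had 2.70, 3.52, 2.98 and 4.13 scaled FPKM and knockouts 8.45, 15.8, 4.80 and 5.81. Controls at 30 °C had 7.05, 9.94 and 22.5 and knockouts 145, 44.7 and 62.7. The groups did not overlap at either temperature, with knockout 2 high at 22 °C and knockout 1 high at 30 °C. The log2 fold change of Cd68 was 1.05 at 22 °C (SE 0.40, limma adjusted p = 0.229) and 2.56 at 30 °C (SE 0.47).

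Atp6v0d2 encodes the d2 subunit of the proton pump that acidifies lysosomes, an isoform known from osteoclasts and macrophages. Its scaled FPKM was 0, 0.025, 0.044 and 0.094 in controls (an estimated 0, 1.08, 2.11 and 4.30 fragments) and 0.504, 1.72, 0.072 and 0.538 in knockouts at 22 °C. At 30 °C controls had 0.128, 0.520 and 1.96 and knockouts 29.4, 7.16 and 6.82. Knockout 3 lay within the control range at 22 °C, and the log2 fold change of Atp6v0d2 there was 0.63 (SE 0.41, limma adjusted p = 0.499). At 30 °C it was 2.86 (SE 0.48).

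Ctsk encodes cathepsin K, a collagen-cutting cysteine protease of osteoclasts that fibroblasts and activated macrophages also make. Controls at 22 °C had 2.92, 2.18, 2.66 and 2.78 scaled FPKM and knockouts 3.04, 5.13, 3.12 and 3.30. Controls at 30 °C had 4.20, 4.79 and 5.56 and knockouts 21.9, 8.18 and 9.33. The groups did not overlap, but at 22 °C all except knockout 2 lay within a narrow band. The log2 fold change of Ctsk was 0.34 at 22 °C (SE 0.24, limma adjusted p = 0.536) and 1.15 at 30 °C (SE 0.27), which with Cd9 made it one of the 2 genes with the smallest differences at 30 °C.

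In the comparison at 22 °C, 0 of the 10 genes passed limma at an adjusted p under 0.05, where 1.71% of all genes tested passed (107 higher and 116 lower in knockouts). Lgals3 and Cd68 had an unadjusted p under 0.05, of 0.0017 and 0.0215, where 2011 of all 13079 genes tested had one. By limma voom on recovered fragments 0 passed as well, and 2 had an unadjusted p under 0.05 (1973 of all 13014 genes tested). With a pseudocount of 0.1, and with the fit to the compared groups alone, 0 passed and 7 had an unadjusted p under 0.05. Of all 13079 genes tested, 2100 had one with that pseudocount and 1709 with the compared groups alone. Lgals3 passed in 2 of 26 alternative settings, with a range of adjusted p from 0.0116 to 0.215, and Cd68 in 1 of 26, with a range from 0.0398 to 0.506. The groups did not overlap and knockouts were higher for 7 of 10 genes (Gpnmb, Trem2, Mmp12, Itgax, Lgals3, Cd68 and Ctsk), where 4.94% of all genes tested were higher in knockouts without overlap. Of the 7 genes that pass the filter on low values without the knockouts at 30 °C, 0 passed limma and 6 did not overlap. Genes of this list share their animals and rise and fall together among them, so these are not separate observations.

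The median log2 fold change of the 10 genes at 22 °C was 0.65, beside 0.01 over all genes tested, and 9 of 10 were positive. It was 1.71 with a pseudocount of 0.1 and 2.14 with limma voom (0.02 over all genes in both). Knockout 2 had the highest value of its group in 10 of 10 genes, and the median without it was 0.39. Of the genes, 3 (Trem2, Spp1 and Atp6v0d2) passed the filter on low values (1 FPKM in 3 of the 14 animals) only through the knockouts at 30 °C, and all 10 passed. Without knockout 2 the log2 fold change at 22 °C was 0.28 for Trem2, 0.083 for Spp1, 0.64 for Mmp12, 0.40 for Itgax, 0.38 for Atp6v0d2 and 0.20 for Ctsk. For Cd9 it was -0.084 without control 4.

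**Figure D2:**
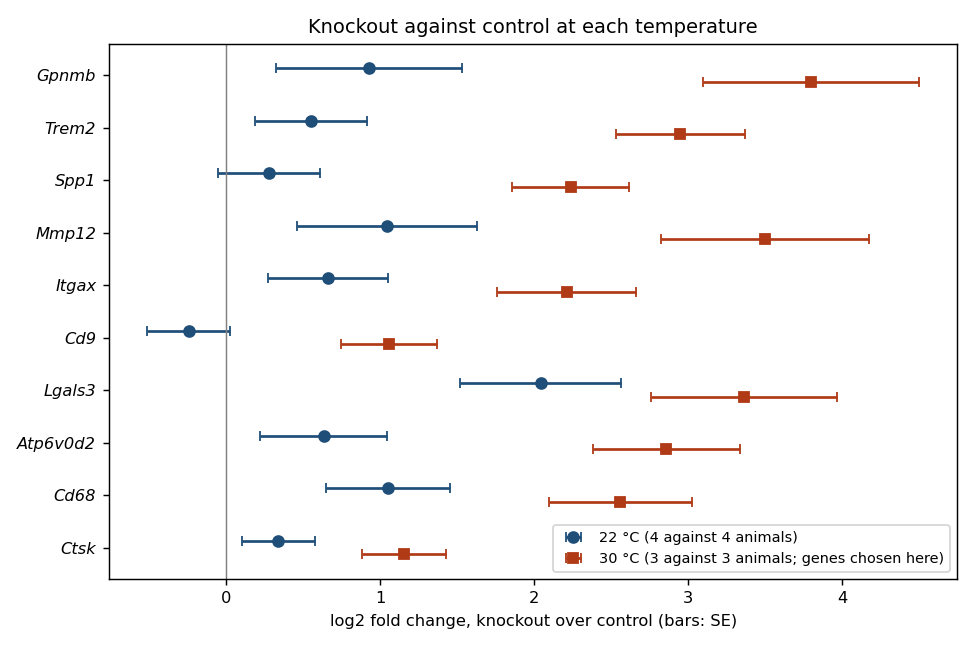
Log2 fold change of knockout over control for each gene at 22 °C (circles, 4 against 4 animals) and 30 °C (squares, 3 against 3), with bars of 1 SE on either side from the limma fit; the genes were chosen on the values at 30 °C. The square lies to the right of the circle in 10 of 10 genes, with the smallest differences for Cd9 and Ctsk.

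On the log2(scaled FPKM + 1) scale the knockout difference at 30 °C was larger than that at 22 °C for 10 of 10 genes. As a ratio of group means of scaled FPKM it was larger at 30 °C for 8 of 10, and at 22 °C for Mmp12 (139.5 against 12.7) and Atp6v0d2 (17.4 against 16.6), whose controls at 22 °C rest on a few fragments. The difference in log2 fold change (22 °C minus 30 °C) ran from -2.87 for Gpnmb (SE 0.93) and -2.45 for Mmp12 (SE 0.89) to -0.82 for Ctsk (SE 0.36), with a median of -1.75 beside -0.0023 over all genes tested. Every gene tested was larger at 30 °C in 25 of the 26 alternative fits, and only 6 genes were tested when a mean of 5 FPKM was asked for. With limma voom 9 of 10 were larger at 30 °C, since Mmp12, nearly absent from the controls at 22 °C, then had a log2 fold change of 6.34 at 22 °C and 4.11 at 30 °C. The animals at 30 °C entered the choice of genes, so this difference was not tested. It also runs across temperatures, where housing temperature and sex-linked expression cannot be told apart.

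Levels differed between the animals at 22 °C and 30 °C in both genotypes, where housing temperature and sex-linked expression cannot be told apart. In controls, 9 of 10 genes were lower at 22 °C than at 30 °C without overlap (21.5% of all genes tested were), and Cd9 overlapped. The log2 difference in controls had a median of -1.04, with Lgals3 at -2.29, Gpnmb at -2.11 and Mmp12 at -1.90. In knockouts, 10 of 10 were lower at 22 °C without overlap (26.7% of all genes tested were), the median was -3.01, and Gpnmb was at -4.99. These comparisons share the animals at 30 °C that entered the choice and were not tested.

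Knockouts at 30 °C also differed among themselves. Knockout 1 had the highest value of the 3 in 10 of 10 genes and knockout 2 the lowest in 9 of 10, and the ratio of highest to lowest ran from 2.68 for Ctsk to 6.39 for Gpnmb. Control 3 was the highest control at 30 °C in 9 of 10 genes. The ratio of the lowest knockout to the highest control was 5.34 for Spp1, 4.04 for Trem2 and 3.47 for Atp6v0d2, and it was 1.198 for Cd9. Without knockout 1 the median log2 fold change at 30 °C was 2.145, and without control 3 it was 3.13. Without knockout 1 the value of Cd9 was 0.61 and that of Ctsk 0.74.

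General macrophage markers were high in the same animals as the 10 genes. A list of 15 of them, among them the receptor Csf1r and the F4/80 gene Adgre1, summed to 55.6 to 77.3 scaled FPKM in controls and 79.96 to 192 in knockouts at 22 °C, and none of the 15 was at 0 throughout. At 30 °C the sum was 105 to 356 in controls and 473 to 1406 in knockouts. Knockouts were higher without overlap for 3 of 15 at 22 °C and 11 of 15 at 30 °C (4.94% and 19.0% of all genes tested). The medians of the log2 fold changes were 0.52 and 1.62. Fcgr1, one of the 11, passed the filter on low values only through the knockouts at 30 °C. At 22 °C 0 of 15 passed limma and 5 had an unadjusted p under 0.05 (2011 of all 13079 genes tested). Of these 5, Cd14 was lower in knockouts, at -0.52, and the others were higher. The geometric mean of the 15 markers was 26.5, 10.5 and 14.1 in the knockouts at 30 °C and 3.20, 3.30 and 8.92 in the controls, so that knockout 1 and control 3 also had the highest marker level of their groups. The part of macrophage number in the values of the 10 genes was not tested.

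The 10 genes were also set against that marker level in the same animal, as a description at 30 °C, where they were chosen. Subtracting the mean log2(scaled FPKM + 1) of the 15 markers left a knockout difference at 30 °C of 2.29 for Gpnmb, 1.99 for Mmp12, 1.86 for Lgals3, 1.44 for Trem2, 1.35 for Atp6v0d2, 1.05 for Cd68 and 0.70 for Itgax. These 7 of 10 did not overlap between groups, where 0.306% of all genes tested were higher without overlap after the same subtraction, which lowers the difference of every gene. Spp1 at 0.73, Ctsk at -0.35 and Cd9 at -0.45 overlapped. As a ratio of scaled FPKM to the geometric mean of the markers, Spp1 did not overlap either, which made 8 of 10 (0.489% of all genes tested). Gpnmb relative to Csf1r, as a ratio of scaled FPKM, was 8.92, 2.69 and 1.92 in the knockouts and 0.408 to 1.44 in the controls at 30 °C, and 0.105 to 0.499 and 0.0728 to 0.124 in those at 22 °C. At 22 °C the difference from the marker level was without overlap for 2 of 10 genes, Lgals3 at 1.61 and Cd68 at 0.62 (0.413% of all genes tested), and the ratio for 4 of 10, with Trem2 and Mmp12 added (0.428%).

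**Figure D3:**
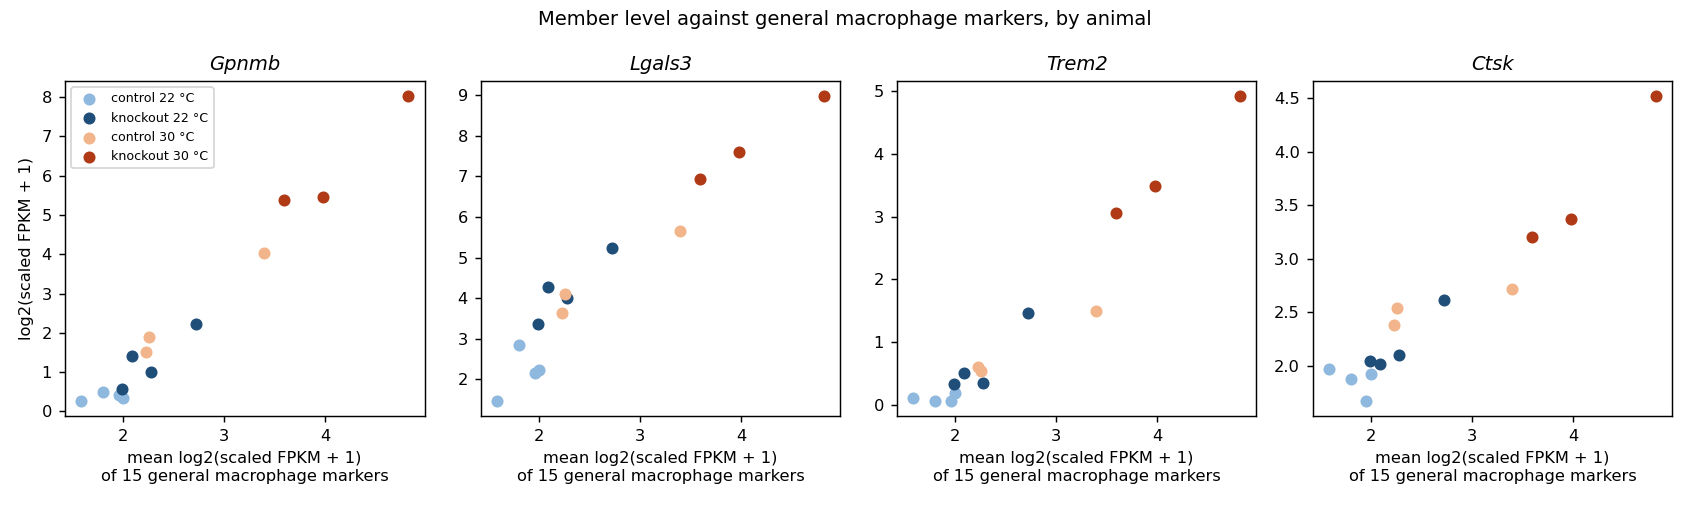
Level of Gpnmb, Lgals3, Trem2 and Ctsk in each of the 14 animals (vertical axis, log2(scaled FPKM + 1), own range per panel) against the mean log2(scaled FPKM + 1) of 15 general macrophage markers in that animal (horizontal axis); each point is 1 animal and colours are the 4 groups. The points run upward in all 4 panels, and the 3 knockouts at 30 °C are highest on both axes.

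Other cell types gave the following values. Of 12 markers of resident macrophages, 10 were tested, and 6 of these were higher without overlap in knockouts at 30 °C (19.0% of all genes tested). The 12 summed to 323 to 726 scaled FPKM in those knockouts and 94.7 to 218 in controls. The sum was mostly C1qa, C1qb and C1qc, at 214, 236 and 217 of the 726 in knockout 1. The median log2 fold change was 1.11 at 30 °C and 0.32 at 22 °C. Cd163 (-0.24), F13a1 (0.19), Cbr2 (0.23) and Lyve1 (0.46) overlapped between knockouts and controls at 30 °C. Vsig4 was near 0 in all animals. Monocyte, neutrophil, dendritic and T and B cell lists had medians between -0.20 and 0.53 at both temperatures, with Ly6g and Mpo near 0. These medians rest on 3, 3, 3 and 6 genes tested. Cx3cr1, Plac8 and Ccr7 among them passed the filter on low values only through the knockouts at 30 °C. The neutrophil gene Elane was lower without overlap in knockouts at 30 °C, at -1.04. Fibroblast genes were higher without overlap in knockouts at 30 °C for 6 of 7 (493 to 948 against 274 to 314), with a median of 1.05. Brown adipocyte genes were lower without overlap for 7 of 8 (5821 to 7533 against 10855 to 13655), with a median of -0.86. Dio2 overlapped, at 0.93. Over all genes tested, 19.0% were higher and 17.2% lower without overlap. Adipoq, the adiponectin gene, was the only 1 of the 8 to pass limma at 22 °C (log2 fold change -0.78, SE 0.15, adjusted p = 0.0218). It was at 354 to 553 scaled FPKM in knockouts and 628 to 908 in controls there, and passed in 20 of 27 settings. The brown adipocyte genes went both ways at 22 °C, with a median of -0.09 and Ucp1 at -0.01. Adipoq and Fabp4 (-0.53) were lower without overlap there, and Plin1 (0.45) and Pparg (0.47) were higher without overlap. Skeletal muscle genes summed to 11488, 3892 and 18.7 scaled FPKM in controls 1, 2 and 3 at 30 °C, and the groups overlapped for 7 of 7. The low animal, control 3, was the control that was high for most of the 10 genes. The part of these cell types in the values of the 10 genes was not tested.

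Osteoclasts, bone-resorbing relatives of macrophages, use Ctsk, Atp6v0d2, Spp1 and other genes of the list. Of 8 osteoclast markers, 4 passed the filter. For Mmp9, Ocstamp, Oscar and Calcr, which did not, knockouts and controls overlapped at 30 °C. Calcr, the calcitonin receptor, reached at most 0.0879 scaled FPKM in any animal. The log2 fold change at 30 °C was 0.99 for the fusion gene Dcstamp and 0.86 for Tnfrsf11a, the receptor RANK. Both reached 1 FPKM only in the knockouts at 30 °C and passed the filter only through them. Nfatc1 was at 0.26, and Acp5, tartrate-resistant acid phosphatase, was at -0.65.

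In TREM2 signalling, Tyrobp encodes DAP12, the adaptor through which TREM2 signals. Its scaled FPKM was 3.54 to 8.58 in controls and 7.67 to 19.1 in knockouts at 22 °C, a log2 fold change of 0.97 (SE 0.40, limma adjusted p = 0.262). At 30 °C it was 13.2 to 36.9 in controls and 55.6 to 199 in knockouts, a difference of 2.19 (SE 0.46). The kinase Syk, downstream of that adaptor, was at 1.74, the phospholipase Plcg2 at 0.83 and the phosphatase Inpp5d at 0.73 on the same scale at 30 °C. Plcg2 passed the filter on low values only through the knockouts at 30 °C. Of the 12 genes on that list, 5 were higher and 1 lower without overlap at 30 °C (19.0% and 17.2% of all genes tested). At 22 °C 0 passed by limma, and 3 had an unadjusted p under 0.05 (2011 of all 13079 genes tested). The medians were 0.22 at 22 °C and 0.47 at 30 °C. The lower one was Apoe, an apolipoprotein that TREM2 binds, at 1572 to 2042 scaled FPKM in knockouts and 2633 to 3015 in controls at 30 °C (log2 fold change -0.68, SE 0.32). At 22 °C Apoe had a log2 fold change of -0.99 (SE 0.28, limma adjusted p = 0.0992), and it was one of the 3.

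A longer list of 30 further genes of lipid-associated macrophages, of which 28 were tested, had medians of 0.15 at 22 °C and 0.71 at 30 °C. Vat1, a membrane protein of vesicle transport, was the only one of the 28 to pass limma at 22 °C, at 17 to 23.9 scaled FPKM in knockouts and 9.86 to 13.5 in controls (log2 fold change 0.78, SE 0.17, adjusted p = 0.0375). It passed in 14 of 27 settings, with an adjusted p of up to 0.129 in the others. At 30 °C 16 of 28 were higher without overlap (19.0% of all genes tested), with the largest values for Ctss (2.82), Cd84 (1.85), Clec7a (1.71) and Anpep (1.69). Clec7a and Slc37a2, both among the 16, passed the filter on low values only through the knockouts at 30 °C. The groups were lower without overlap for 2 of 28, Apoe and Npc2, a lysosomal carrier of cholesterol, at -0.53. Ctss, a cathepsin of antigen-presenting cells, was at 353, 84.1 and 100 scaled FPKM in those knockouts and at 8.47, 12.6 and 66.2 in the controls.

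Relatives of the 10 genes in the same families were described at 30 °C as well. There 19.0% of all genes tested were higher and 17.2% lower in knockouts without overlap. Of 17 subunits of the vacuolar proton pump, 7 were higher and 1 lower without overlap in knockouts at 30 °C. The median was 0.18, with the largest values for Tcirg1 (1.199) and Atp6v0a1 (0.93). The other d subunit, Atp6v0d1, was at 0.29 (SE 0.14), beside 2.86 for Atp6v0d2. Of the 7 galectins, 1 was higher and 1 lower without overlap at 30 °C (median 0.13), with Lgals12, a galectin of adipocytes, at -0.83. Of 15 tetraspanins, 2 were higher and 4 lower without overlap at 30 °C. Their median was -0.07, with the leukocyte members Cd53 at 1.59 and Cd37 at 1.27 and Tspan4 at -0.75. Differences between a member and its family were not tested.

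Of 11 cathepsins tested, 5 were higher and 1 lower without overlap at 30 °C (median 0.51), with Ctsh at 1.23, Ctsc at 1.04 and Ctsf at -0.82. Over all genes tested 19.0% were higher and 17.2% lower, for this family and those that follow. The metalloproteinases and their inhibitors had 6 of 13 higher without overlap (median 0.50), among them Mmp23 at 1.85, Timp1, an inhibitor of these proteases, at 1.72, and Mmp28 at 1.70. In that family 1 was lower without overlap, the inhibitor Timp4 at -1.24. Of the receptors of osteopontin and the integrin partners of Itgax, 6 of 9 were higher without overlap (median 0.48). Itgb2, the beta2 chain that pairs with Itgax, was at 2.47, and Cd44, a receptor of Spp1, at 1.35. In these 3 families 0 genes passed limma at 22 °C, with 4 at an unadjusted p under 0.05 in all (2011 of all 13079 genes tested).

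The MiT/TFE factors drive lysosomal genes and Gpnmb. Mitf was at 1.87 ± 0.11 scaled FPKM in controls and 2.997 ± 0.57 in knockouts at 30 °C (SD, n = 3 each), Tfeb at 26.3 ± 3.35 and 37.8 ± 6.85, and Tfe3 at 8.38 ± 0.70 and 10.03 ± 0.35. All 3 were higher in knockouts without overlap at 30 °C (19.0% of all genes tested were), with log2 fold changes of 0.47, 0.50 and 0.24. At 22 °C they were at 0.18, 0.36 and 0.38, and the smallest limma adjusted p was 0.160, for Tfe3. Tfec was too low to be tested.

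**Figure D4:**
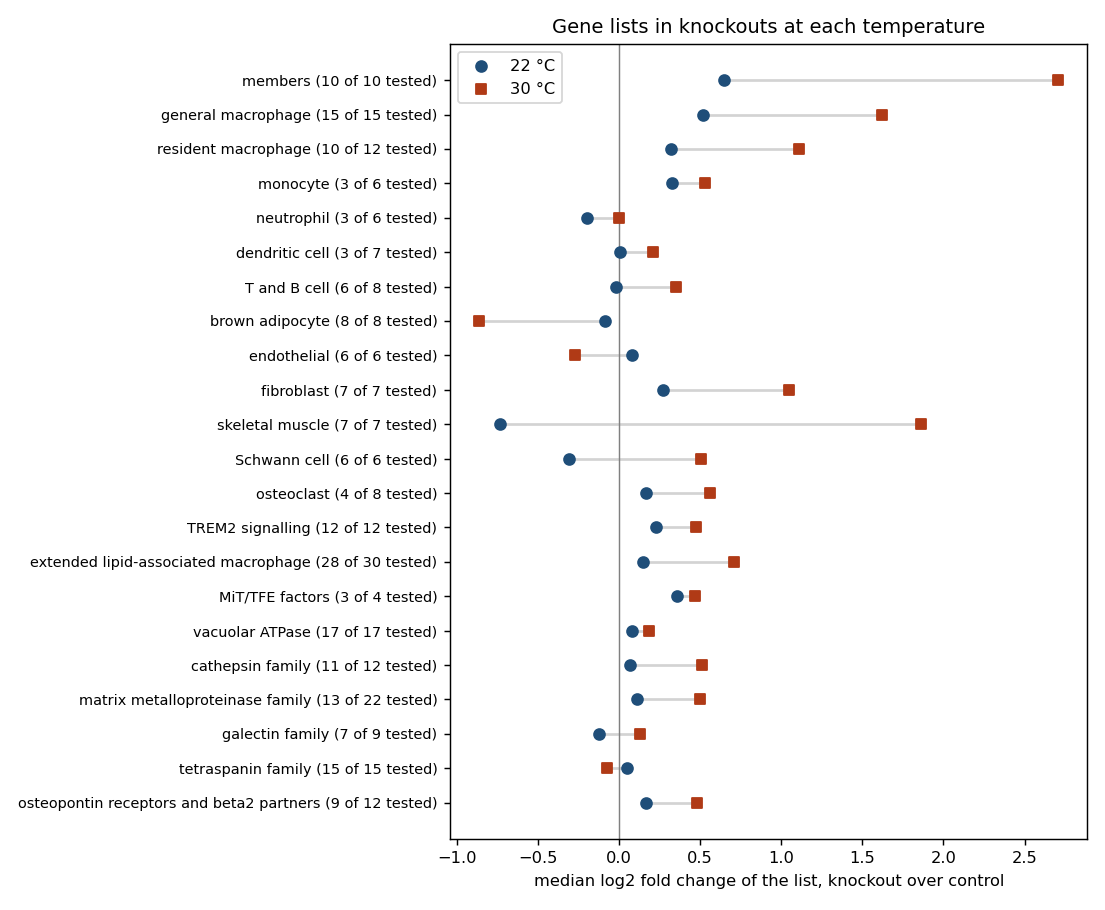
Median log2 fold change, knockout over control, of the 10 genes (top row, named members) and of 21 other lists at 22 °C (circles) and 30 °C (squares), with the number of genes tested; grey lines join the medians of a list. The median of the 10 genes at 30 °C is 2.71, on values that served to choose them, and that of the brown adipocyte genes is -0.86.

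Outside the list of 10, the genes most like Gpnmb over the 14 animals, by Pearson's r of log2(scaled FPKM + 1), were Slc11a1 (0.995), Itgb2 (0.993), Slc15a3 (0.992), Pik3r5 (0.992) and Cd44 (0.992). For Trem2, 4 of the nearest 5 outside the list were Cd300lb (0.993), Adam8 (0.991), Dpep2 (0.991) and Arl11 (0.989). With the group means removed, so that only differences between animals of a group remain, those outside the list nearest to Gpnmb were Hk3 (0.977), Pik3r5 (0.974), Slamf8 (0.971), Cd300lb (0.971) and Dcstamp (0.970). For Trem2, 4 of the 5 were Msr1 (0.981), Cd180 (0.966), Anpep (0.962) and Slc11a1 (0.960). Among the 10 genes themselves, Mmp12 was nearest to Gpnmb (0.996, and 0.981 with the group means removed) and Cd9 farthest (0.878 and 0.516). These values describe the 14 libraries, which share their depth and scaling, and the knockouts at 30 °C weigh heavily in them.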

How the data were processed

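The authors deposited a table of FPKM for each of 14 animals. The submitters' processing notes name the build mm9, and the aligner, the counting tool and the use of strand are not given in the sources used here. Symbols were matched for 34490 of 35275 gene identifiers with GENCODE M21. Depth was recovered from steps between low values (93.4% to 94.8% of those values were whole within 0.1 of a fragment), and precision covers counting error only. Libraries were scaled by the median ratio to the geometric mean of 15432 nuclear genes above 0 in every library (factors 0.799 to 0.981 in knockouts, 1.03 to 1.29 in controls). Genes with 1 FPKM in 3 animals were kept (13079), and log2(scaled FPKM + 1) was fitted with limma 3.58.1 (R 4.3.3, trend) as 4 group means, adjusted by Benjamini-Hochberg over all genes and called under 0.05. P-values measure the spread between these animals. The labels give no pairing and no batch. The scripts were tested on simulated data of 12677 genes with 196 changed (for the comparison at 22 °C, 77.8% of 2-fold and 97.9% of 4-fold changes were recovered, 8.02% of calls were unchanged genes, and 0 calls had the wrong direction). These shares give the power for no single gene of the 10. Alternatives covered pseudocount, filter, scaling, fit, weights, controls with another identifier series and each animal in turn. The limma voom fit, scaling over genes of at least 1 FPKM, ratios to macrophage markers, ratios of group means and the motif search were added after seeing the data. Named genes were the 10 members, from each list up to 3 called at 22 °C in each direction and up to 4 with the largest difference at 30 °C, the MiT/TFE factors, Tyrobp, and the 5 genes nearest to Gpnmb and Trem2, of which 1 is not reported here. Vsig4, Ly6g, Mpo, Mmp9, Ocstamp, Oscar, Calcr, Csf1r, Apoe, Npc2, Atp6v0d1, Xist and Ddx3y were named after their values were seen. So were Fcgr1, Cd14, Slc37a2, Cd163, F13a1, Cbr2, Lyve1, Plin1, Pparg and Timp4. Members and lists were chosen with earlier results of these data known. Tables and plots came from pandas 2.3.3, matplotlib 3.10.9 and numpy 2.4.6 under Python 3.11.15.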

Additional observations from a re-analysis of the deposited data

Results flagged for a closer look

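In the knockouts at 22 °C, knockout 2 lay apart from the other 3 animals for Trem2, at 1.75 scaled FPKM against 0.255 to 0.418, by Dixon's test at the 95% level. The same animal lay apart for Ctsk, at 5.13 scaled FPKM against 3.04 to 3.30. The test was made for 20 groups of 4 animals (10 genes in knockouts and controls at 22 °C) and chance flags about 1 in 20. Knockout 2 also had the highest level of the general macrophage markers in its group (geometric mean 5.10 scaled FPKM against 2.58 to 3.42).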

How the results depend on the processing

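No paired analysis was possible because the labels give animals identifiers and no replicate numbers that groups share. At 22 °C, where 0 of 10 genes passed limma, 2 passed with FPKM as deposited (Lgals3 and Cd68) and 1 with sample weights (Lgals3). FPKM as deposited moved the median of all genes from 0.01 to 0.24 (log2), called 3248 genes (3167 higher, 81 lower) in place of 223 and 36 genes of the lists in place of 2, and put Cd9 at 0.0066. Sample weights called 815 genes and 5 of the lists, the fit to the compared groups alone 66 and 0, and no filter 100 and 0. Without the controls with R identifiers 322 were called (84 higher, 238 lower). The median of the 10 genes at 22 °C, 0.65, was 1.71 with a pseudocount of 0.1 and 2.14 with limma voom, chosen after seeing the data. The temperature median in controls (-1.04) was -2.30, -1.73 and -2.85 with that pseudocount, a mean FPKM of at least 5 (6 genes) and voom, and in knockouts (-3.01) -3.91 with the pseudocount and -4.24 with voom. Relative to macrophage markers at 22 °C, 4 genes in place of 2 did not overlap with a pseudocount of 0.1, and 4 as a ratio to the geometric mean, added later. The causes were not tested. Leaving out each animal in turn left 0 of the 10 genes called at 22 °C in all 14 fits, and gave medians of 0.39 to 0.80 at 22 °C, 2.145 to 3.13 at 30 °C, -2.09 to -1.23 for the difference, -1.35 to -0.72 for temperature in controls and -3.34 to -2.50 in knockouts. It gave 0 to 4 list genes and 63 to 247 genes called, and 2 to 4 (22 °C) and 7 to 8 (30 °C) genes without overlap relative to macrophage markers. By Spearman's rho, 1, 1, 0 and 1 of the 5 nearest genes were shared. Values of the 10 genes under 0.1 scaled FPKM rest on an estimated 6.12 fragments or fewer.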
